A study of Mus musculus with 4 samples.

Results

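The promoters of 10 germline genes were examined in the mouse liver methylome, namely Dazl, Ddx4, Mael, Hormad1, Sycp1, Sycp3, Stra8, Tdrd1, Asz1 and Slc25a31. All CpG cytosines covered in every mouse and within 1000 bp of a curated RefSeq transcription start site (TSS) of these genes were taken. This gave 373 of the 1276684 cytosines common to all mice, of which 708576 lay in promoters of any gene. All 10 genes had covered promoter sites, from 5 at Stra8 to 96 at Dazl. In any mouse at all, 433 sites of these promoters were covered.

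Livers of 4 male mice on a normal diet, aged between 6 and 8 weeks, were profiled by enhanced reduced representation bisulfite sequencing (ERRBS), which enriches CpG-rich regions by restriction digestion of genomic DNA and reads methylated cytosines as C and unmethylated ones as T after bisulfite treatment. The B6 mice, B6-1 and B6-2, were of the inbred strain C57BL/6, called Black-6 in the labels. The Mixed mice, Mixed-1 and Mixed-2, descended from C57BL/6J and from strains that are not named, so their genotypes are unknown. Coverage summed over sites, which counts a read at each site it spans, was 91886997 to 99215153 in the B6 libraries. In the Mixed libraries it was 60654199 to 65176203. The 2 strains were thus sequenced to different depths, and they were kept at different institutions. Strain, housing and depth therefore cannot be told apart. Each strand of a CpG is a site of its own, a site needed at least 10 reads, and its methylation level is the percentage of reads that were C. Values of single mice are listed with the Mixed mice before the B6 mice and number 1 before number 2 in each. Bisulfite does not separate methylated from hydroxymethylated cytosine. RNA was not analysed here, so nothing below measures whether these genes were silent.

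Germline genes are used in the making of eggs and sperm and kept off in most other tissues. Many of them start in CpG-rich sequence, which is free of methylation at most genes, and the promoters of this class are a well known exception in that they gain DNA methylation when the embryo implants and keep it in body tissues. The letters CACGTG, an E-box, and the GC-rich site GCGGGA are the recognition sequences of the MGA-MAX and E2F6 complexes, which are known to bind promoters of germline genes.

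The following stretches carry the patterns described below, and they were chosen after the values had been seen. They are printed 5′ to 3′ in the direction of the gene, from the RefSeq GRCm38.p6 assembly, and capitals mark CpGs with a site common to all mice, so that a CpG in lower case was not measured in all of them. The stretch upstream of Hormad1 is a CpG-dense promoter with methylation at nearly every site.

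Hormad1 upstream (chr3:95559427-95559676, plus strand): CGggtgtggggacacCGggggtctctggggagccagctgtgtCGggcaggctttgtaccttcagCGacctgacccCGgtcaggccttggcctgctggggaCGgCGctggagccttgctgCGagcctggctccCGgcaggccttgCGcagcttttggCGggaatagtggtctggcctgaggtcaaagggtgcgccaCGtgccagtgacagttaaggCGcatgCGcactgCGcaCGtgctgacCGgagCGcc

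The stretches of Dazl come from its intron and lie before, across and after a fall in methylation from near complete to near zero.

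Dazl methylated side (chr17:50293290-50293404, minus strand): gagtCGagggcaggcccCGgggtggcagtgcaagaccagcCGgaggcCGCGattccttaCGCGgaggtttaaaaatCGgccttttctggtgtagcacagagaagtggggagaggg
Dazl switch (chr17:50293010-50293210, minus strand): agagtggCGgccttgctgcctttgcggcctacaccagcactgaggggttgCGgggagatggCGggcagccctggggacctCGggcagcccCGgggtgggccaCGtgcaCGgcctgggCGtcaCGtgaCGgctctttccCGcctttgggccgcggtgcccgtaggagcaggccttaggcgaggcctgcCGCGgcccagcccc
Dazl unmethylated side (chr17:50292825-50293005, minus strand): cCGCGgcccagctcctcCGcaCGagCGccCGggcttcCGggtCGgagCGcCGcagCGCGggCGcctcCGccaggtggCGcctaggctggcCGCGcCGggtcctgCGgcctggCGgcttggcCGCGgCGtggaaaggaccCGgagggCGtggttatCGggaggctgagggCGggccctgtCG

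The stretch upstream of Ddx4 holds an E-box CpG that was the least methylated of the promoter, and the short stretch upstream of Sycp1 holds the CpGs whose strands differed most.

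Ddx4 upstream (chr13:112652311-112652450, minus strand): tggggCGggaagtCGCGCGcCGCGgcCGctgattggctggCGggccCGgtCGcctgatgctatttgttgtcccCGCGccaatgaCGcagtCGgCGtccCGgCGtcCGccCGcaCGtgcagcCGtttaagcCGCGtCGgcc
Sycp1 upstream (chr3:102936140-102936210, minus strand): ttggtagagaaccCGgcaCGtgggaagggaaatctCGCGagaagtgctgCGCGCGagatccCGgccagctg

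The intronic stretch of Tdrd1 shows a partly methylated promoter with no site above 80% on average.

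Tdrd1 intron (chr19:56826477-56826559, plus strand): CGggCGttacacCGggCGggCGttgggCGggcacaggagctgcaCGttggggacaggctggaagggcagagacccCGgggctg

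These promoters were among the methylated minority. The 10 genes and the wider list described further on were chosen with earlier results of these data known. The shares below therefore describe these genes and are no test of them. The promoter level of a gene is the mean over its common sites, and 14912 genes had at least 5 of these. Of the 10 germline genes, 5 were above 80% in every mouse, against 2.62% of all genes. The other 5 lay between 20% and 80% in every mouse, against 4.57% of all genes. None was below 20%, where 90.7% of all genes lay. Above 50% in every mouse were 8 of the 10, against 5.44% of all genes. The median promoter of all genes was methylated at 0.315%, and the median of the 10 was 79.6%.

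The germline promoters were also set beside genes of like CpG content. Promoters were classed by the richest 500 bp stretch within 1000 bp of the TSS, where a high class needed a CpG content of at least 0.75 of that expected from the bases and a GC content of at least 55%. Dazl, Ddx4, Mael, Hormad1, Sycp1, Stra8, Tdrd1 and Slc25a31 were in this class, or 8 of 10, as were 11753 of all 14912 genes, a similar share. Of the 8, Hormad1, Sycp1, Stra8 and Slc25a31 were above 80% in every mouse, against 0.298% of the high class. Sycp3 and Asz1 were of the intermediate class, in which 7.83% of 2594 genes passed that bound, and Asz1 passed it while Sycp3 did not. In the plot of all promoters, most genes of both classes fall in the lowest bar and the germline genes stand in the thin right part.

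**Figure D1:**
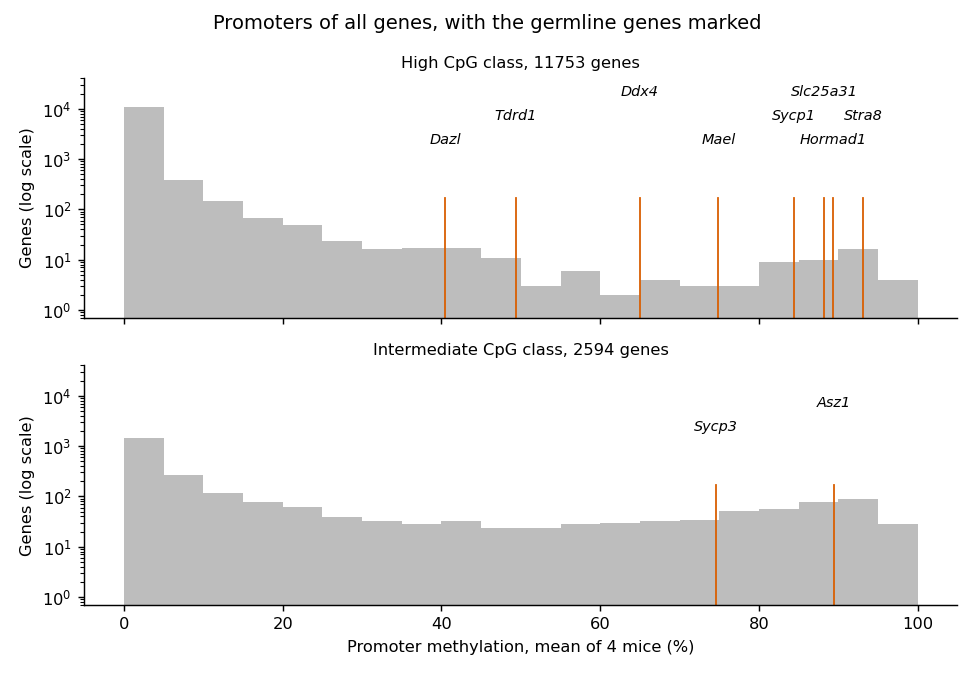
Number of genes (log scale) by promoter methylation in percent, as the mean of the 4 mice, for the high and the intermediate CpG class. Orange lines mark the 10 germline genes, which lie between 40.5% (Dazl) and 93.1% (Stra8), right of the bar at 0% to 5% that holds most genes of both classes.

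Dazl (chr17, minus strand, TSS at 50293620) encodes an RNA-binding protein that germ cells need to translate their messages. Its promoter mean was 40.7% and 41.0% in the Mixed mice and 39.9% and 40.3% in the B6 mice, or 40.5% ± 0.449 (SD, n = 4), the lowest of the 10 with this window. The mean described few of its sites, since 35 of 96 were above 80% and 52 were below 20%, counted on the mean over the mice. From 535 bp upstream to 461 bp downstream of the TSS, 40 sites averaged 91.3% and 91.98% in the Mixed mice and 91.0% and 91.8% in the B6 mice. This zone had a gap, since no common site lay between 492 bp and 1 bp upstream. The next 10 sites, 472 to 548 bp downstream, averaged 24.0%, 24.8%, 18.8% and 17.6%. The last 46 sites, 598 to 878 bp downstream, averaged 0.209%, 0.152%, 0.121% and 0.511%, and no single site there was above 3.23% in any mouse.

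The Dazl switch was thus at the same place in all 4 mice, inside the intron, where 68 of the 96 sites lay. Methylation was 92.7% at 461 bp, 73.4% at 472 bp, 31.3% at 491 bp and 4.47% at 512 bp, as means over the mice. The sites at 518, 527 and 537 bp were at 11.2%, 11.8% and 15.7%, with 25.7% at the last of them in B6-1, before the level fell to 4.53% at 548 bp. Coverage on the unmethylated side was 15 to 161 reads a site. Among 11329 genes with at least 20 promoter sites, 17 had at least 25% of their sites above 80% and at least 25% below 20%, which is 0.15%. Of the 8 germline genes with that many sites, Dazl did so, with 36.5% and 54.2% of its sites. The zones end at the last site above 80% and at the last site of at least 2%, and both the zones and this count were chosen after the Dazl values were seen. The promoter mean of Dazl depended on how it was taken. It was 29.0% when all reads were pooled and 86.5% over sites within 500 bp of the TSS. Over the 9 upstream sites alone, with the gap named above, it was 93.6%. That was the highest of the 7 genes with enough upstream sites.

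**Figure D2:**
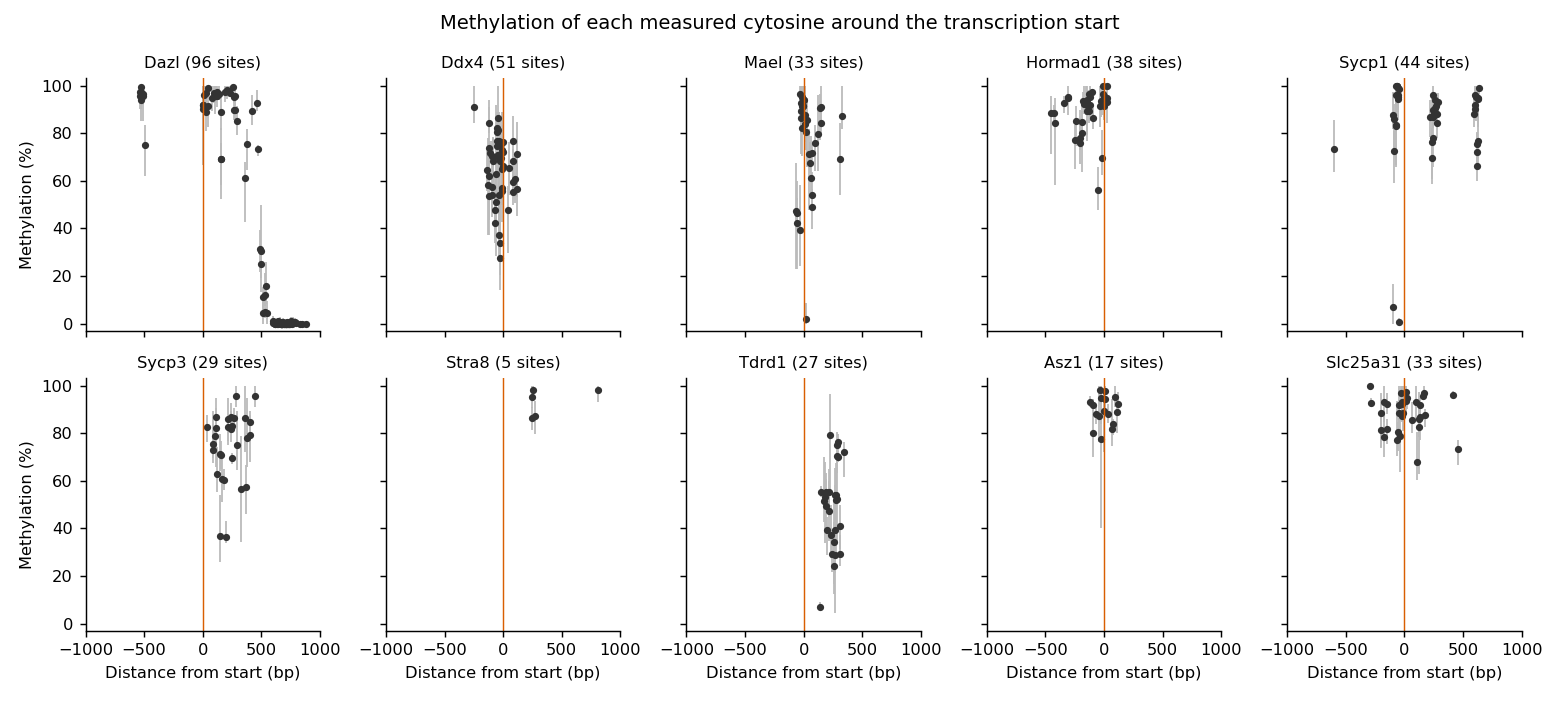
Methylation in percent of each common cytosine against its distance from the TSS in bp (orange line) for the 10 genes. Points are means of the 4 mice and grey bars run from the lowest to the highest mouse. Dazl falls from 92.7% at 461 bp to between 4.47% and 15.7% from 512 to 548 bp and to near zero beyond, while Tdrd1 and Ddx4 hold mid-range sites throughout.

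Ddx4 or Vasa (chr13, minus strand, TSS at 112652310), an RNA helicase that marks germ cells, had a promoter mean of 64.2% and 61.5% in the Mixed mice and 64.9% and 69.5% in the B6 mice, or 65.0% ± 3.31 (SD, n = 4). In contrast to Dazl, 45 of its 51 sites were between 20% and 80%, 6 were above and 0 below. Its lowest site was 26 bp upstream at 14.3% and 31.3% in the Mixed mice and 44.4% and 20% in the B6 mice, with 18 to 48 reads. Its highest was 253 bp upstream at 91.0% on average. Upstream of the TSS lay 41 of its sites, in the CpG-rich stretch printed above.

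Stra8 (chr6, plus strand, TSS at 34920948), which retinoic acid induces as germ cells enter meiosis, had the highest promoter mean and the thinnest data. Its 5 sites averaged 93.3% and 94.8% in the Mixed mice and 90.3% and 94.1% in the B6 mice, or 93.1% ± 2.00 (SD, n = 4). Coverage summed over these sites was 70, 61, 187 and 150, where a read that spans several sites counts at each. Single sites had 10 to 15 reads in the Mixed mice. The 95% Wilson interval of the pooled share ran from 84.3% to 96.9% in Mixed-1 and from 86.5% to 98.3% in Mixed-2. Such intervals take each read at each site as a separate count and do not measure the spread between mice. Nearby sites can share reads, and copies made by amplification are not separate molecules, so the intervals can be too narrow. All 5 sites were in the intron, 242 to 808 bp downstream, so the upstream side of Stra8 was not measured.

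The genes of the meiotic chromosome axis and the synaptonemal complex had promoter means between 73.0% and 91.3% in every mouse. Hormad1 (chr3, plus strand, TSS at 95559677), a HORMA-domain protein of the unsynapsed axis, averaged 88.0% and 91.3% in the Mixed mice and 87.9% and 90.3% in the B6 mice over 38 sites, or 89.4% ± 1.68 (SD, n = 4). Of these sites 33 were above 80% and 0 below 20%, and 34 lay upstream. They ran from 56.1% at 54 bp upstream to 100% at 9 bp upstream. Sycp1 (chr3, minus strand, TSS at 102936100), the transverse filament of the synaptonemal complex, averaged 81.2%, 84.7%, 85.5% and 86.1% over 44 sites, or 84.4% ± 2.22 (SD, n = 4). It had 33 sites above 80% and 2 below 20%, and both low sites are cases of unequal strands described further on. Its highest site, 60 bp upstream, was at 100% in all mice. Sycp3 (chr10, plus strand, TSS at 88459587), a lateral element protein, averaged 73.4%, 73.0%, 73.8% and 78.2% over 29 sites, or 74.6% ± 2.45 (SD, n = 4). Its sites all lay downstream of the TSS, 13 above 80% and 16 between 20% and 80%. The lowest was 200 bp downstream at 36.6% and the highest 448 bp downstream at 95.8%.

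Genes of the piRNA pathway, the small RNA defence against transposons in germ cells, were less alike. Mael (chr1, minus strand, TSS at 166238744), a protein of the germ granule, averaged 76.9% and 73.4% in the Mixed mice and 77.9% and 71.4% in the B6 mice over 33 sites, or 74.9% ± 3.01 (SD, n = 4). It had 19 sites above 80% and 1 below 20%, and its highest site was 30 bp upstream at 96.3%. Asz1 (chr6, minus strand, TSS at 18109061), an ankyrin-repeat protein of the same granules, averaged 86.6%, 89.5%, 91.7% and 90.2% over 17 sites, or 89.5% ± 2.11 (SD, n = 4). In Asz1, 16 of 17 sites were above 80%, and they ran from 77.4% to 98.0%. Tdrd1 (chr19, plus strand, TSS at 56826209), a Tudor-domain partner of the PIWI proteins, averaged 52.4%, 47.8%, 50.1% and 47.1% over 27 sites, or 49.4% ± 2.40 (SD, n = 4).

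Tdrd1 was the one gene with no site above 80% on the mean over mice, since 26 sites were between 20% and 80% and 1 was below. The lowest was 140 bp downstream at 6.87% and the highest 224 bp downstream at 79.1%. Its 18 sites from 140 to 273 bp downstream averaged 47.8% and 40.3% in the Mixed mice and 45.8% and 42.1% in the B6 mice. The 9 sites from 280 to 344 bp averaged 61.8%, 62.9%, 58.5% and 57.1%, above the nearer sites in every mouse. This division was chosen after the values were seen. Tdrd1 has 4 curated TSS positions, and its distances are from the most upstream of them, at 56826209. Nothing upstream of that TSS was measured in all mice.

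Slc25a31 (chr3, plus strand, TSS at 40708871), the ATP/ADP carrier of mitochondria in male germ cells, averaged 85.7% and 89.5% in the Mixed mice and 90.05% and 87.7% in the B6 mice over 33 sites, or 88.2% ± 1.95 (SD, n = 4). It had 28 sites above 80% and 5 between. They ran from 67.9% at 105 bp downstream to 100% at 296 bp upstream. No other gene had a curated TSS within 1000 bp of any of the 10, so none of these promoters was shared.

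In order of the means, the genes ran Stra8, Asz1, Hormad1, Slc25a31, Sycp1, Mael, Sycp3, Ddx4, Tdrd1 and Dazl. The ranges over the 4 mice overlapped between neighbours from Stra8 to Sycp1, and between Mael and Sycp3. They did not overlap between Sycp1 and Mael, Sycp3 and Ddx4, Ddx4 and Tdrd1, or Tdrd1 and Dazl. Across the 373 sites, the levels of any 2 mice correlated with r between 0.933 and 0.955, which describes sites that share reads and fragments. This r also takes in differences between genes. Within single promoters it was 0.986 to 0.992 at Dazl, 0.864 to 0.937 at Sycp1 and 0.816 to 0.862 at Mael. It was 0.711 to 0.845 at Sycp3, 0.518 to 0.840 at Tdrd1, 0.505 to 0.748 at Hormad1 and 0.449 to 0.715 at Ddx4. At Stra8 it was 0.426 to 0.879, at Slc25a31 0.501 to 0.578 and at Asz1 -0.0562 to 0.488.

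Gene bodies of these genes were barely covered. The body was taken as the transcribed span without sites within 1000 bp of the TSS of any gene, and 22 common sites lay there, all of them in Sycp1, Tdrd1 and Asz1. The other 7 genes had 0 body sites, and no comparison can be made for them. The 3 body sites of Sycp1 averaged 91.2% and 95.2% in the Mixed mice and 97.0% and 98.1% in the B6 mice. The 10 of Tdrd1 averaged 86.3%, 84.1%, 87.5% and 88.6%, and the 9 of Asz1 averaged 94.5%, 95.3%, 92.6% and 94.0%.

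In all 3 genes the promoter was below the body in every mouse. The difference, promoter minus body, was -10.99 points ± 0.918 (SD, n = 4) at Sycp1, -37.25 ± 3.17 at Tdrd1 and -4.63 ± 2.95 at Asz1. A two-sided exact sign-flip permutation test gave p = 0.125 for each, the smallest p that 4 mice allow. Promoters were below bodies in every mouse in 94.5% of 9539 genes with at least 3 body sites and above in 3.13%. The direction at the 3 germline genes was that of most genes. The promoters of Asz1 and Sycp1 were above the 80.2% of the median gene body of all genes, and that of Tdrd1 was below it. In the plot of values by mouse the open squares of the bodies sit above the filled points of the same mouse.

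**Figure D3:**
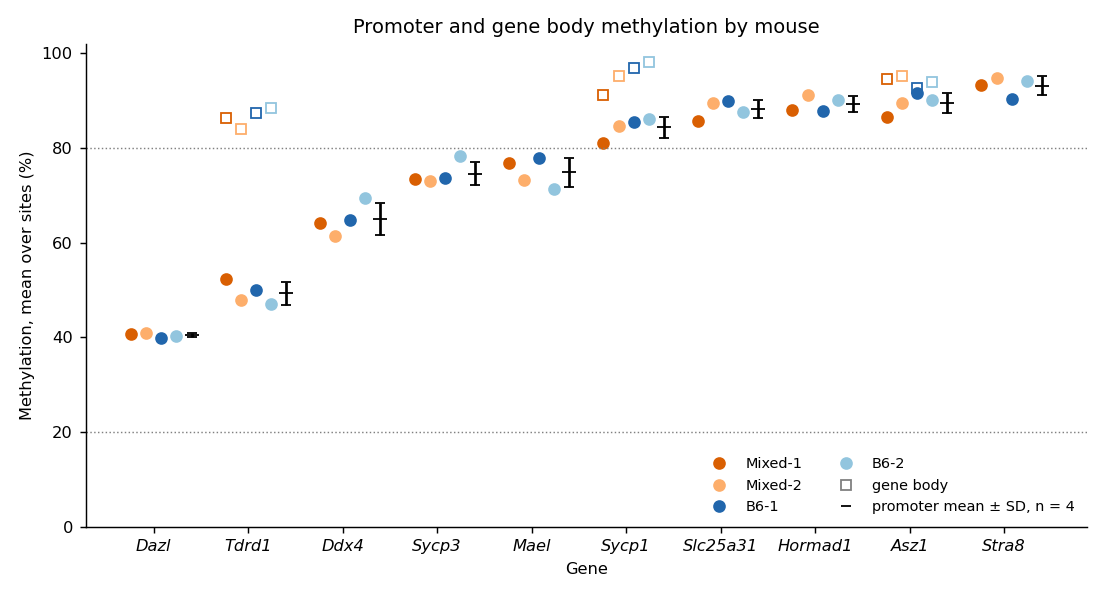
Methylation in percent as the mean over common sites, by gene and mouse, with filled points for promoters and open squares for gene bodies. Black marks are the mean ± SD of the 4 mice. The 5 genes on the right lie above the dotted line at 80% in every mouse, and bodies were measured at Tdrd1, Sycp1 and Asz1.

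The strains differed little at these promoters. The mean of the Mixed mice minus that of the B6 mice was between -4.34 points at Ddx4 and 1.91 points at Stra8. Both B6 mice lay above both Mixed mice at Ddx4, Sycp1, Sycp3 and Asz1, which is 4 of 10 against 17.5% of all genes. Both Mixed mice lay above both B6 mice at Dazl, by 0.69 points, which is 1 of 10 against 17.7% of all genes. An exact permutation test of 2 mice against 2 cannot give a p under 0.333, and these 5 genes had that value. At the other 5 genes the strains overlapped.

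A logistic model of methylated and unmethylated reads, with its overdispersion moderated by limma over all promoters, called 0 of the 10 promoters different between strains at an adjusted p under 0.01 and at least 25 points, and 0% of all 14912. Fisher's exact test on pooled reads called 0 of the 10 too, and 3 of all 14912. An unadjusted p under 0.05 was reached by 2 of the 10, Dazl and Sycp3, against 4.57% of all promoters. The smallest adjusted p by limma was 0.253, at Dazl. There the pooled reads of the Mixed mice were 6.22 points above those of the B6 mice, while the site means differed by 0.69 points. Pooled values weight sites by reads, and read numbers on the unmethylated side of Dazl varied by site. At 619 bp downstream the Mixed mice had 63 and 52 reads and the B6 mice 161 and 152. At 710 bp downstream the Mixed mice had 57 and 66 reads and the B6 mice 47 and 55. What share of the pooled difference came from depth was not tested.

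Of the single cytosines, 1 of the 373 was called different between strains, against 0.0272% of all common sites. An unadjusted p under 0.05 was reached by 23, or 6.17%, against 2.51% of all common sites, of which many are near zero and leave little room for a difference. The site called was at Ddx4, 65 bp upstream on the strand read as R (chr13, position 112652375). It was methylated at 89.7% and 91.7% in the Mixed mice and 28.6% and 41.5% in the B6 mice, from 39 and 24 reads and 42 and 53 reads, so the strains did not overlap. The difference was 55.3 points, with an adjusted p of 0.0028 by the limma-moderated model.

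The other strand of the same Ddx4 CpG did not follow, with 53.5% and 42.9% in the Mixed mice and 46.3% and 61.4% in the B6 mice. On the strand of the call, the site 67 bp upstream had 58 and 49 reads in Mixed-1 and Mixed-2 where the called site had 39 and 24, and 42 and 53 reads in B6-1 and B6-2, as at the called site. The call was absent when both strands were merged, and also without Mixed-1, without Mixed-2 or without B6-1. The genotype of the Mixed mice at this base was not tested.

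The next largest difference was at Tdrd1, 224 bp downstream, with 96.4% and 95.2% in the Mixed mice against 70.0% and 54.8% in B6-1 and B6-2, and an adjusted p of 0.416 by the same limma-moderated model. Reads there numbered 28 and 21 in the Mixed mice, and 51 and 59 at the site 4 bp before it, while B6-1 and B6-2 had 20 and 42 reads against 20 and 43. The site that followed, Asz1 26 bp upstream, had 40% and 83.3% in the Mixed mice and 86.2% and 100% in the B6 mice, an adjusted p of 1 by the same model. Its difference rested on Mixed-1, the lowest mouse.

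Some sites went against their promoter at CpGs whose strands disagreed. Of 91 CpGs of these promoters read on both strands, 3 had strands that differed by at least 50 points in the same direction in every mouse, against 1.97% of all such CpGs, a criterion set after seeing the values. At Mael, 20 bp downstream, the R strand read 0% and 0% in the Mixed mice and 0% and 8.57% in the B6 mice, while the F strand of the same CpG read 86.8%, 83.8%, 72.7% and 78.8%. At Sycp1, 49 bp upstream, the R strand read 2.33%, 0%, 0% and 0% and the F strand 100%, 100%, 93.8% and 100%. At Sycp1, 96 bp upstream, the F strand was the low one, with 16.7%, 7.14%, 0% and 4.55% against 81.8%, 89.2%, 82.1% and 97.3%.

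All 3 CpGs lay in CCGG, the sequence cut by MspI, the enzyme named in the labels. Over the genome, 4950 of the 4973 CpGs with such strands lay in CCGG, as did 66543 of all 251994 CpGs read on both strands. At the minimum of 10 reads, a site listed at 0% allows a share of up to 30%. Without cytosines of CCGG, an alternative chosen after seeing the data, Sycp1 averaged 88.0% and Mael 76.8%.

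The promoters were searched for the E-box and GCGGGA. In windows from 250 bases before to 50 after a curated TSS, searched on both strands, the E-box CACGTG was found in 7 of the 10 genes, all but Dazl, Stra8 and Asz1. Of 11594 genes with at least 5 common sites and such a window, 11.7% held it. GCGGGA was found in Ddx4, Mael, Hormad1, Sycp1, Sycp3 and Slc25a31, or 6 of 10, against 41.3% of those genes. The same 6 held both, against 4.69%. Of 40 genes of the wider germline list described further on, 35% held the E-box, 40% GCGGGA and 12.5% both. These 40 were not limited to genes with at least 5 common sites. Over all 27025 genes with such a window, the shares were 8.09%, 22.05% and 2.32%. Among 247 genes above 80% in every mouse, 8.10% held the E-box and 10.5% held GCGGGA. A match is only the presence of these letters.

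CpGs within E-boxes were lower than the rest of the promoter where they could be measured. At Ddx4, 26 bp upstream, both strands of the E-box CpG averaged 24.3% and 25.9% in the Mixed mice and 36.1% and 36.4% in the B6 mice, against 65.8%, 62.9%, 66.1% and 70.8% over the other 49 sites. At Hormad1 the E-box CpGs 55 and 18 bp upstream averaged 56.1% and 69.4%, where the other 36 sites averaged 90.8%. The site in the former was the lowest of the whole promoter. At Sycp1, the E-box CpGs 91 bp upstream and 616 bp downstream averaged 79.2% and 69.0%, against 85.4% over the other 40 sites.

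E-box CpGs were below the other sites in every mouse at all 3 of these genes, the ones with a promoter above 50% and a covered E-box. The same held in 71.1% of 38 such genes over the genome, with a median difference of -16.1 points, so the direction was not particular to the germline genes. Several microRNA genes among the 38 share windows and sites. This comparison was made after the low sites of Ddx4 and Hormad1 had been seen. Dazl had E-boxes 513 and 533 bp downstream, at the bottom of its switch, with 4.47% and 5.0%. Outside Dazl, CpGs within GCGGGA were closer to or above their promoter mean, with 64.6% at Ddx4, 86.5% at Hormad1, 85.8% at Mael and 94.97% at Slc25a31.

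**Figure D4:**
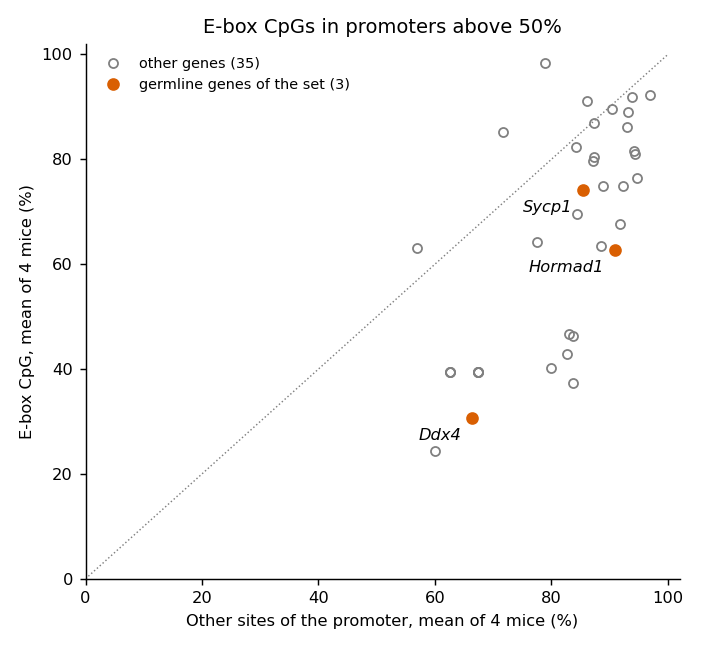
Mean methylation in percent of E-box CpGs against that of the other sites of the same promoter, for 38 genes whose promoter was above 50% in every mouse, as means of the 4 mice. The dotted line marks equality. Ddx4, Hormad1 and Sycp1 (orange) lie below it, as do most other genes (grey, some of which overlie each other).

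High promoter methylation was common but not general among germline genes. Of a wider list of 48, 15 had no common promoter site and 3 had fewer than 5, and 30 could be compared. Of these, 13 were above 80% in every mouse, 6 were between 20% and 80% and 9 were below 20%, while 2, Sycp2 and Zp3, crossed 80% between mice. The median of the 30 was 71.2%. Of all genes, 2.62% were above 80% in every mouse, 4.57% between 20% and 80%, and 90.7% below 20%. Of germ cell regulators 8 of 11 were above 80% and 1 of 11 below 20%, with a median of 91.98%. Of genes of meiotic chromosomes and recombination 2 of 12 were above 80% and 5 of 12 below 20%, with a median of 26.4%. In the piRNA pathway 3 of 7 were above 80% and 3 of 7 below 20%, with a median of 58.3%. Differences between these groups were not tested, and the groups were not matched for CpG class. The meiotic genes compared were of the high class except Hormad2, while the other groups held genes of both the high and the intermediate class.

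The 5 highest of the wider list were Tex19.1 at 95.4% ± 1.11 (SD, n = 4), Brdt at 94.7% ± 2.29, Rpl10l at 93.8% ± 1.17, Sohlh1 at 93.7% ± 1.90 and Taf7l at 93.0% ± 2.31. Sohlh1 is a transcription factor of early germ cells and Brdt a bromodomain protein of the testis. The 5 lowest were Meiob and Pld6, each listed at 0% in every mouse over 8 and 6 sites, then Ddx25 at 0.731% ± 0.134, Stag3 at 0.893% ± 0.547 and Tdrd5 at 2.19% ± 0.353. Stag3 is a meiotic cohesin subunit. A TSS of another gene lay within 1000 bp of that of Stag3, Ddx25, Smc1b at 23.1% and Tex14 at 91.98%, the last named after its value was seen.

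Genes between 20% and 80% on average were Sycp2 at 77.3% ± 4.87 (SD, n = 4), Hormad2 at 65.0% ± 3.09, Rnf17 at 58.3% ± 6.80, Meioc at 51.8% ± 1.81, Mei1 at 29.7% ± 2.53, Smc1b at 23.1% ± 1.82 and Boll at 22.3% ± 1.39. Sycp2 passed 80% in Mixed-2 and B6-1. The levels of close relatives among germline genes were not alike. Hormad1 was at 89.4% and Hormad2 at 65.0%, and Dazl and Boll, both of the DAZ family, were at 40.5% and 22.3%. Tdrd1 at 49.4% had relatives as far apart as Tdrd9 at 90.6% ± 2.78 and Tdrd5 at 2.19%, of which Tdrd9 was named after its value was seen.

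The 9 relatives described here, which are expressed in many tissues, were unmethylated, as most genes were. All 9 were below 20% in every mouse, against 90.7% of all genes, and ran from 0.0261% at Slc25a5 to 0.356% at Mad2l1. The ADP/ATP carriers Slc25a4 and Slc25a5 were at 0.288% and 0.0261%, where Slc25a31 was at 88.2%. The helicases Ddx5 and Ddx3x were at 0.130% and 0.239%, where Ddx4 was at 65.0%. Mad2l1, which shares the HORMA domain with Hormad1, was the highest of them. Tdrd3 was at 0.116%, Smc1a at 0.307% and Rad21 at 0.126%. Dazap1, counted with the relatives only because it is named for binding Dazl, was at 0.0751%. In the plot of the wider lists, the points of the 4 mice lie close together at each gene and the relatives form a column at zero.

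**Figure D5:**
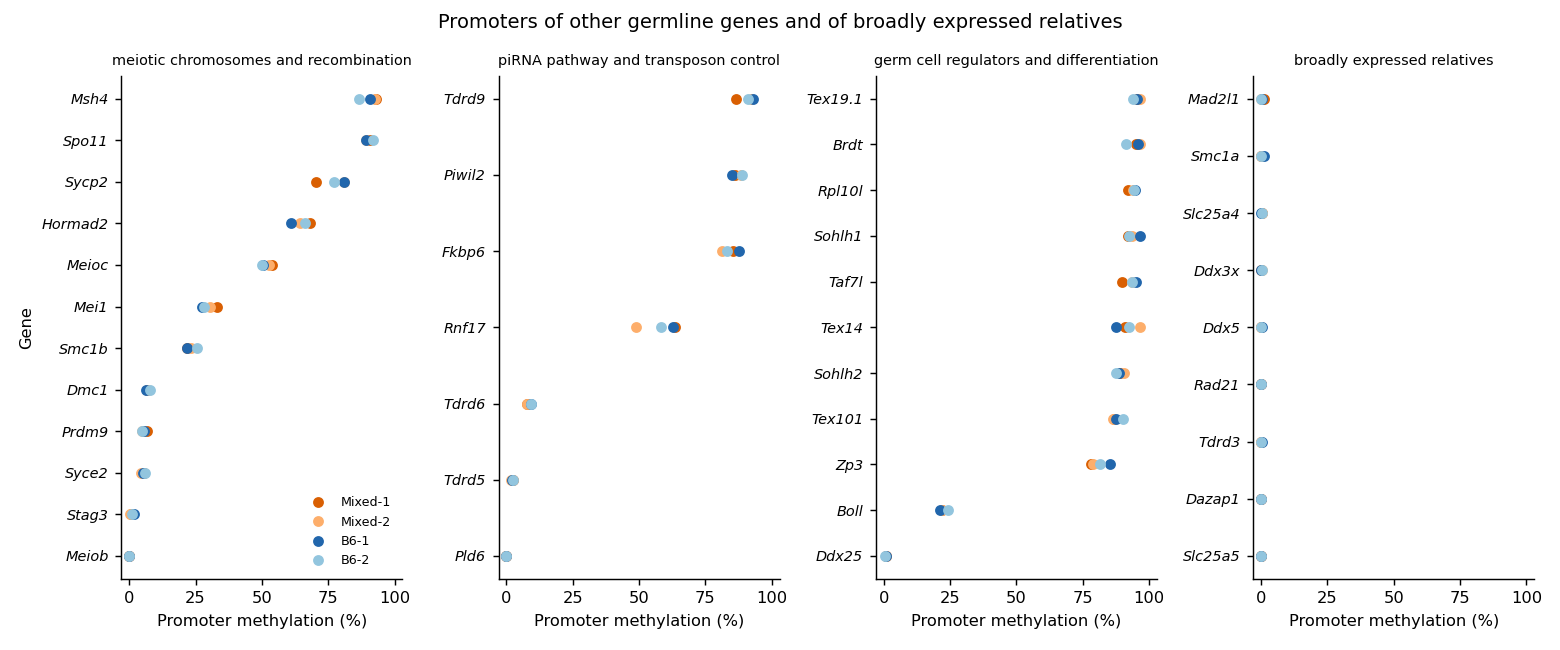
Promoter methylation in percent by gene for 3 groups of the wider germline list and for 9 broadly expressed relatives, with 1 point for each mouse. Germline genes spread from 0% (Meiob, Pld6) to 95.4% (Tex19.1), and the relatives are all at or below 0.356% on average.

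The labelled tissue could not be checked at these promoters. Of 10 hepatocyte genes 3 had common promoter sites, and low values there are those of most genes. Apoa2 was at 0.651% ± 0.562 (SD, n = 4), Fah at 0.531% ± 0.164 and Hnf4a, which has more than 1 promoter, at 28.7% ± 3.97. The 2 blood cell genes had none, so the share of blood cells in these livers was not tested.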

How the data were processed

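ERRBS libraries of liver DNA from 4 male mice, 2 Mixed and 2 B6, were analysed, each mouse as 1 replicate. The permutation tests compared values of these mice. The logistic model used a spread between mice that was largely shared over all sites or promoters. Fisher's exact test on pooled reads took no account of the spread between mice. Single-end reads were mapped to mm10 by the authors, with BSMAP according to the study's methods, while the submitters' processing notes name Bismark and SAMtools. Which of them made these files is not settled here. The authors deposited for each mouse the coverage as a count of reads per CpG cytosine and strand, without normalization, for sites with at least 10 reads. They also deposited the percent of reads that were C and that were T.

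Methylated reads were taken as percent times coverage. Mean coverage was 44.2 to 63.7 reads. Sites were placed on GRCm38.p6 with RefSeq annotation, and all 1276684 common sites lay on a CpG. Promoters were 1000 bp on each side of curated TSSs. Strain calls came from a logistic model with limma 3.58.1 under R 4.3.3 and Benjamini-Hochberg adjustment over all sites or promoters, tested on simulated data. Other values used pandas 2.3.3, scipy 1.17.1 and numpy 2.4.6 under Python 3.11.15. The 13 promoter windows given by RefSeq for the 10 genes equalled the genome.

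The 10 genes and the lists were chosen with earlier results of these data known. By rule, all 10 genes were named, with the 5 highest, the 5 lowest and the mid-range genes of the wider list, 9 broadly expressed relatives, the lowest and highest site of each promoter and the 3 sites with the largest strain difference. The result of 1 further relative is not reported here. The alternatives were a minimum of 20 reads, a coverage ceiling, merged strands, pooled reads, all sites of each mouse, other windows, transcripts, bounds and body definitions, a replicate block, Fisher's exact test, another threshold, and leaving out each mouse. Leaving out cytosines of CCGG was added after seeing the data. The replicate numbers of the labels were checked as pairs. After subtracting each strain's mean, mice with the same number had r = 0.000363 over 148813 sites of 20% to 80%, and the numbers were not taken as pairs.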

Additional observations from a re-analysis of the deposited data

Results flagged for a closer look

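The promoter of Sycp3 had 1 mouse apart from the others, B6-2 at 78.2%, where Mixed-1, Mixed-2 and B6-1 lay at 73.4%, 73.0% and 73.8%. The gap to the nearest mouse was 0.8451 of the whole range, above the 95% critical value of Dixon's test for 4 samples. Chance alone gives such a gap in about 1 of 20 groups, and 10 promoters were looked at.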

How the results depend on the processing

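Each alternative was set against 5 of 10 promoters above 80% in every mouse, 0 of 3 genes with promoter above body, 13 of 30 wider-list promoters above 80%, 1 strain-different site and 0 strain-different promoters. With at least 20 reads in every mouse, 3 of 9 promoters were above 80%, since Stra8 had no site left and Sycp1 was at 79.7% in Mixed-1. With 1000 bp upstream only, 4 of 7 were above 80%, where Dazl passed and Sycp1 was at 77.8% in Mixed-1. Without cytosines of CCGG, 4 of 9 were above 80%. With a bound of 90% the count was 1 of 10 and with 50% it was 8 of 10. Promoters above the body numbered 1 of 4 with all sites of each mouse (Stra8), 1 of 4 with 500 bp on each side (Dazl) and 2 of 7 with 1000 bp upstream only (Dazl and Ddx4), where more body sites entered and the narrower windows count former promoter sites as body. Wider-list promoters above 80% numbered 2 of 16 with 1000 bp upstream only and 7 of 24 without cytosines of CCGG, an alternative chosen after seeing the data, with fewer genes tested in both. Strain-different sites of the 10 genes numbered 2 by Fisher's exact test and 0 with merged strands, and 0 to 1 when each mouse was left out. Over all sites, 347 calls became 1612 by Fisher's exact test and 232 at 20 reads. By the limma-moderated model they became 1135 at an adjusted p under 0.05 with no minimum difference. Strain-different promoters of the 10 genes stayed at 0 in all alternatives run. With the replicate block 1 site of the 10 genes and 674 of all sites were called, and 0 promoters. The mice share only a number, and the block left the counts of called sites and promoters of the 10 genes unchanged. No called difference changed sign. The mean of Dazl went from 40.5%, the lowest of the 10 genes, to 86.5% with 500 bp on each side, where it passed 80% in every mouse in place of Stra8, which had too few sites, and to 93.6% with 1000 bp upstream only, the highest of 7.

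Depth limits single sites. The Mixed mice had 10 to 15 reads at each site of Stra8. Sycp3, Stra8 and Tdrd1 had no common site upstream of the TSS given above.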
